A study of Rattus norvegicus with 60 samples.

Results

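The 8 small RNAs of blood vessel walls listed here were followed in rat retina after ischemia-reperfusion (IR) injury, namely miR-126, miR-143, miR-145, miR-199a-3p, miR-199a-5p, miR-214, miR-221 and miR-222. They were chosen by name, as every rat microRNA (miR) on the array with one of these numbers that was not marked as a star strand, which gave 8 of the 350 rat miRs measured. Whole retinas came from Long Evan's hooded male rats of 250 to 300 g under pentobarbital anesthesia. In the IR groups the pressure inside one eye was held at 110 mmHg for 60 min through a needle in the anterior chamber, and the retinas were taken after reperfusion of 0 h or 2 h, or of 24 h, 48 h or 7d. Sham control rats underwent the same procedure without the high pressure and were collected at the same times. Each of the 10 groups had 6 rats and each rat 1 array, so 60 single-colour (Cy3) Agilent arrays were labelled from 100 ng of total RNA each.

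MiRs are short RNAs that pair, mainly through a seed at their 5′ end, with messenger RNAs and lower their stability or translation. MiR-126 is known as a miR of endothelial cells and of vessel growth. MiR-143 and miR-145 are made from one precursor region and are abundant in smooth muscle cells and pericytes, the contractile cells around small vessels. MiR-199a and miR-214 are transcribed together in mesenchymal cells, and miR-221 and miR-222 are partners that act in endothelial and smooth muscle growth. The retina holds few such cells among its neurons. In RNA from whole tissue, fewer vessel cells and less RNA in each of them cannot be told apart.

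The mature sequences of all 8 are shown because the seeds define which members could share targets. They were copied from RefSeq (build GRCr8), with the seed, bases 2 to 8, in capitals.
rno-miR-126 (3p): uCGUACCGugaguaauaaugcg
rno-miR-143 (3p): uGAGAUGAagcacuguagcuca
rno-miR-145 (5p): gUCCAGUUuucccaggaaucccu
rno-miR-199a-3p: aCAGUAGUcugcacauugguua
rno-miR-199a-5p: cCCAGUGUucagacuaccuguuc
rno-miR-214 (3p): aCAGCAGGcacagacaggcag
rno-miR-221 (3p): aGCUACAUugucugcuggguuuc
rno-miR-222 (3p): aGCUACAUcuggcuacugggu
MiR-221 and miR-222 were the only members with a common seed, and they matched over their first 8 bases before diverging. The array's names give no arm for 6 of them. For miR-126, miR-143, miR-145 and miR-214 the arm was read from the distance between neighbouring probes, such as the 1340 bases between miR-143 and miR-145. The 566 bases between miR-221 and miR-222 fitted either pair of arms, and the 3p arms are shown for them by their customary names.

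In GRCr8, miR-126 lies on chromosome 3 at 29813219 to 29813240, within the span of Egfl7, a gene of endothelial cells. MiR-143 (57371373 to 57371394) and miR-145 (57370033 to 57370055) lie on chromosome 18 within the long noncoding RNA gene Carmn. MiR-199a-5p (77116255 to 77116277), miR-199a-3p (77116294 to 77116315) and miR-214 (77121713 to 77121733) lie on chromosome 13 within the span of Dnm3. MiR-222 (6022682 to 6022702) and miR-221 (6023246 to 6023268) lie on chromosome X.

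Only miR-126 and miR-143 were measured well enough to be compared. The scanner software marks on each array whether a miR was detected above background. MiR-143 was detected on 58 of the 60 arrays and miR-126 on 48. MiR-214 was detected on 15 arrays, miR-221 on 7 and miR-222 on 2. MiR-145, miR-199a-3p and miR-199a-5p were detected on none, and neither was the star strand of miR-126. Of the 8 members, 5 were therefore detected somewhere and 2 passed the filter for testing, which 159 of the 350 miRs passed.

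The arrays differed in brightness with treatment. Detected miRs numbered 113 to 232 per sham control array, 78 to 127 at IR 24 h and 59 to 125 at IR 7d. Signals were therefore scaled so that each array had the same 75th percentile, taken across the 57 miRs that every array detected. The scaling factor was 0.426 to 1.64 on sham control arrays, 2.12 to 5.73 at IR 24 h and 2.60 to 6.25 at IR 7d. A low signal on a dim IR array was thus multiplied more than the same signal on a sham control array. The part of brightness in the results was not tested beyond the fits given beside them. No slide held IR and sham control arrays of the same time, so slide and treatment cannot be told apart within a time. A fit with the slide as a block therefore rests on slides that held both treatments at different times. The retina's own markers were present: all 3 photoreceptor and all 5 neuron miRs passed the filter, and the red cell markers miR-451 and miR-144 did not. The muscle marker miR-206 was higher in IR than in sham control retinas at all 5 time points. Its log2 difference ran from 1.34 at 7d to 2.33 at 2 h. The other 3 muscle markers did not pass the filter, and their detection did not point one way. MiR-133b reached detection in 7 sham control retinas and in 0 IR retinas. For miR-1 these counts were 4 and 7, and miR-133a had none. The counts were not tested. At 24 h the summed level of the 4 muscle markers was 161 to 332 in IR and 52.7 to 87.1 in sham control. The part of muscle RNA in the results below was not tested.

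The level of miR-126 at 24 h was below that of sham control retinas, by less than the 2-fold that a call required. At 24 h the scaled signal was 13.3 at the lowest, 30.3 at the median and 39.9 at the highest of the 6 IR arrays. In the 6 sham control arrays it was 34.7, 38.8 and 45.3. The sham control minimum was above 4 of the IR values, and the other 2 fell within the sham control range, so the groups overlapped. The log2 difference was -0.52 (SE 0.16, 95% interval -0.84 to -0.20), a ratio of 0.697. The adjusted p was 0.00496 (limma, two-sided, Benjamini-Hochberg over 159 miRs), and an exact permutation test of the 6 against 6 arrays gave p = 0.0281. Since a call here needed a change of at least 2-fold as well as an adjusted p of at most 0.05, miR-126 was not called. An adjusted p of at most 0.05 alone was reached by 96 of the 159 miRs (60.4%) at 24 h, 57 of them lower in IR.

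The detection behind this difference was uneven. MiR-126 was detected on all 6 sham control arrays but on 1 of the 6 IR arrays at 24 h. Before scaling, its IR signals were 2.31 to 16.6 and its sham control signals 34.8 to 78.4. Those of miR-143 were 7.38 to 34.1 and 60.4 to 116.5, so both miRs were dimmer on every IR array at that time. The lowest miR-126 value came from the dimmest IR array at 24 h (replicate 3), and without it the difference was -0.31 with an adjusted p of 0.0540. The adjusted p also rose above 0.05 with the slide as a block (-0.42, adjusted p 0.231) and with array brightness as a covariate (-0.14, adjusted p 0.680). It was at most 0.05 in 12 of the 14 alternatives, of which 11 gave a lower level in IR and normexp background correction a higher one (0.98). Some of the 11 left the difference itself unchanged at -0.52 and so give no separate estimate. These were a floor of 1 signal unit, the filter of 1 detected array, and the scan day or replicate number as a block. The largest of the 11 were quantile normalization (-0.94, adjusted p 0.000224), the deposited table (-0.88, 5.24e-05) and the 75th percentile over all miRs (-0.83, 5.96e-05). None of the 14 called miR-126 at 24 h. Within the 3 scan days, the differences were -0.38, -0.59 and -0.60.

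At the other times the miR-126 difference did not reach the adjusted threshold under the scaling used here, although several alternatives did. At 0 h the scaled signals ran from 24.8 to 35.1 around a median of 30.8 in IR and from 30.9 to 45.6 around 33.4 in sham control, a log2 difference of -0.19 (95% interval -0.51 to 0.13). At 2 h they ran from 27.4 to 35.7 around 33.1 in IR and from 31.03 to 46.2 around 33.8 in sham control, a difference of -0.17 (-0.49 to 0.15). The 2 groups overlapped at both times, although all 6 IR arrays lay below the sham control mean at 2 h. At 48 h the IR signals ran from 21.04 to 37.5 around 33.9 and the sham control signals from 27.5 to 45.1 around 43.5. The difference was -0.32 (-0.64 to 0.00, limma adjusted p 0.0896), and again all 6 IR arrays lay below the sham control mean. At 7d, IR ran from 33.1 to 53.5 around 36.4 and sham control from 36.8 to 49.6 around 43.1, a difference of -0.13 (-0.45 to 0.19). Of these IR arrays 4 lay below all sham control arrays and 1 lay above all of them. MiR-126 was detected on 4, 6, 5 and 2 of 6 IR arrays at 0 h, 2 h, 48 h and 7d, and on all 30 sham control arrays. The adjusted p of miR-126 was at most 0.05 in 5 of 14 alternatives at 0 h, 0 at 2 h, 7 at 48 h and 3 at 7d. At each of these times but 2 h, 1 of them was normexp, with the sign turned. The others gave -0.63 to -0.50 at 0 h and -0.91 to -0.41 at 48 h. At 48 h the mean of log2 probe signals gave -0.91 (limma adjusted p 0.000108), quantile normalization -0.72 (0.00479), only the arrays compared -0.56 (0.0138) and leaving out the 2 dimmest arrays -0.41 (0.00371). At 7d the mean of log2 probe signals gave -0.51 (0.0300) and leaving out the 2 dimmest arrays -0.29 (0.0400). Within the 3 scan days its difference ran from -0.88 to -0.03 at 0 h, from -0.45 to 0.06 at 2 h, from -0.67 to 0.06 at 48 h and from -0.30 to 0.03 at 7d.

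MiR-143 did not pass the adjusted threshold at any time under the scaling used here, but some alternatives did, the most of them at 24 h. At 0 h the scaled signals ran from 59.3 to 77.9 around 68.4 in IR and from 54.2 to 69.5 around 65.2 in sham control. At 2 h they ran from 54.3 to 74.7 around 62.6 in IR and from 61.5 to 70.1 around 68.04 in sham control. These ranges overlapped at both times. At 24 h they ran from 42.3 to 73.7 around 67.1 in IR and from 59.8 to 77.0 around 62.8 in sham control. At 48 h they ran from 58.4 to 76.6 around 66.6 in IR and from 49.02 to 68.97 around 61.4 in sham control. At 7d they ran from 54.9 to 80.2 around 72.3 in IR and from 58.2 to 73.7 around 64.2 in sham control. The groups overlapped at these times too, and 2 IR arrays, 1 at 24 h and 1 at 7d, did not detect miR-143. In log2 units IR differed from sham control by 0.10, -0.08, -0.05, 0.13 and 0.08 from the earliest to the latest time, with an SE of 0.10 for every one. The 95% intervals ran from -0.28 at the lowest bound to 0.33 at the highest, so none included a 2-fold change under this scaling. Within single scan days they ran from -0.28 to 0.33. At 24 h the 75th percentile over all miRs gave -0.37 (limma adjusted p 0.00139), quantile normalization -0.75 (0.00224) and the deposited table -0.41 (0.00113), while normexp background correction gave 0.87 (0.00908). These 4 of 14 alternatives passed the adjusted threshold at 24 h, and the first 3 moved the median of all tested miRs by -0.30, -0.22 and -0.21. The same 3 alternatives gave -0.22 to -0.0036 at 0 h, 48 h and 7d, opposite in sign to the values above and not past the threshold. Normexp did pass it at 0 h (0.75, limma adjusted p 0.0300), 48 h (0.92, 0.00671) and 7d (1.21, 0.000315). The level of miR-143 at 24 h relative to sham control is therefore not settled by these arrays.

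**Figure D1:**
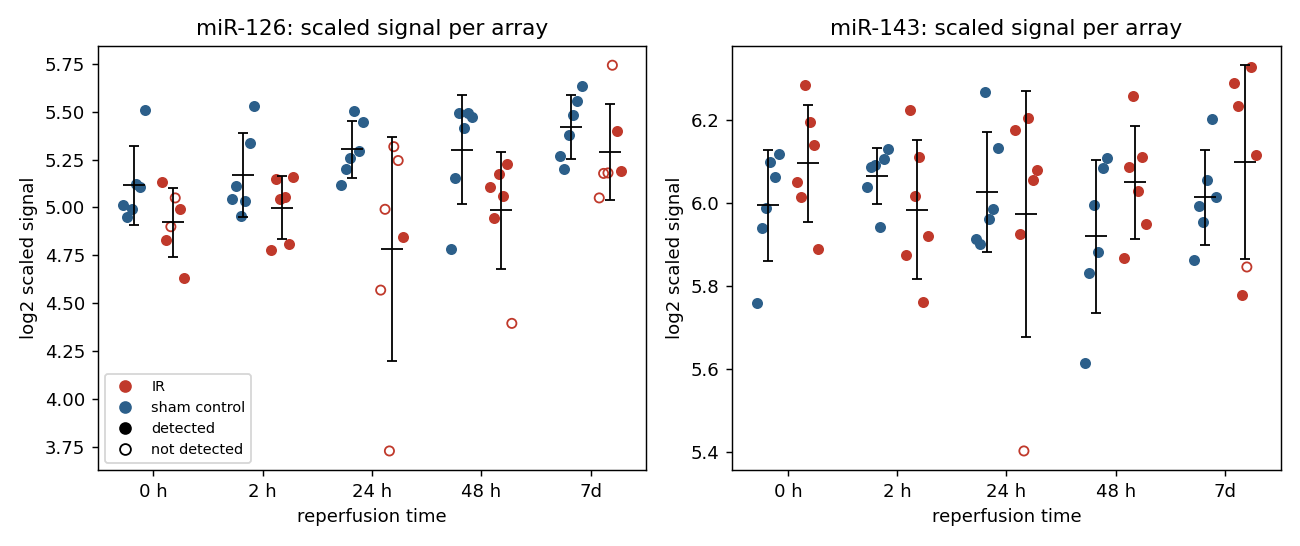
Scaled signal (log2, vertical axes) of miR-126 and miR-143 in each array at the 5 times, with sham control in blue and IR in red; filled points are arrays that detected the miR, open points arrays that did not, and black bars the mean ± SD of 6 arrays. MiR-126 at IR 24 h rests on 1 detected array of 6, and the 2 groups overlap in both panels.

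No member was called at any time. Of the 2 members tested, 0 were called at 0 h, where 6.92% of the 159 tested miRs were called, at 2 h (5.03%), at 24 h (18.2%), at 48 h (13.8%) and at 7d (18.2%). At an unadjusted p under 0.05, 1 of the 10 tests of a member passed, that of miR-126 at 24 h. Between 19 (at 2 h) and 105 (at 24 h) of the 159 tested miRs passed it at a given time. The median log2 difference over all tested miRs was 0.02, -0.01, -0.13, -0.15 and -0.15 at the 5 times in order.

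**Figure D2:**
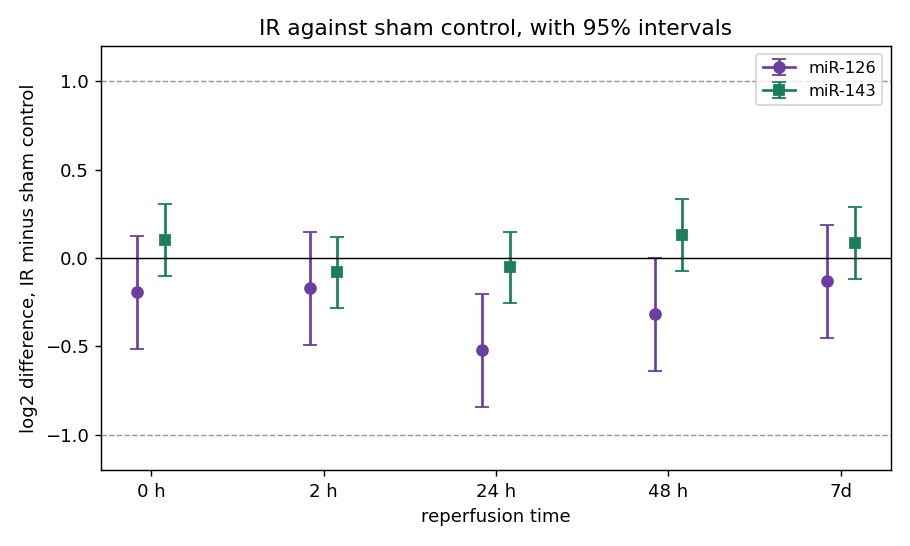
Log2 difference of IR minus sham control (vertical axis) for miR-126 and miR-143 at each time, with 95% intervals from the limma fit; dashed lines mark a 2-fold change in either direction. The interval of miR-126 at 24 h, from -0.84 to -0.20, is the only one that leaves out 0.

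The IR effect on neither member differed detectably between neighbouring times. For miR-126 the effect at 24 h minus that at 2 h was -0.35 (95% interval -0.80 to 0.10, limma adjusted p 0.228). The effect at 48 h minus that at 24 h was 0.20 (-0.25 to 0.66). For miR-143 the 4 such changes lay between -0.18 and 0.18. Over all tested miRs, 0.629% changed their IR effect from 0 h to 2 h, 23.9% from 2 h to 24 h, 0.0% from 24 h to 48 h and 3.14% from 48 h to 7d. For the step from 24 h to 48 h, 19 of the 159 miRs passed an unadjusted p of 0.05.

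Among the sham control groups, the level of miR-126 was highest at 7d, 0.30 above 0 h on the log2 scale (95% interval -0.02 to 0.62, limma adjusted p 0.231). MiR-143 differed from its 0 h level by -0.08 to 0.07. Of the 2 members, 0 were called between sham control groups, and limma called 0.0% of all tested miRs in each of the 4 comparisons with 0 h. Unadjusted p values under 0.05 numbered 1 at 2 h, 25 at both 24 h and 48 h, and 35 at 7d, none of them from a member.

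Over the 10 groups, the mean level of miR-126 was highest in sham control 7d (5.42 ± 0.17, log2, SD, n = 6) and lowest in IR 24 h (4.78 ± 0.58). The 4 lowest means were those of IR 2 h, IR 48 h, IR 0 h and IR 24 h, and IR 7d lay between sham control 48 h and sham control 2 h. MiR-143 spanned 0.18 from IR 7d (6.10 ± 0.23) to sham control 48 h (5.92 ± 0.18). For both miRs all 9 gaps between neighbours in this order were smaller than the pooled SD of the pair. The miRs whose levels followed miR-126 most closely over the 60 arrays, among 57 detected on every array, were miR-125b-5p (Pearson r = 0.49) and miR-26b (0.49). For miR-143 they were miR-16 (0.45) and miR-26b (0.30). MiR-126 and miR-143 correlated with each other at 0.41. MiR-126 correlated with the log2 scaling factor at -0.43 and miR-143 at 0.04. These values describe arrays that share groups, slides and scaling.

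Each member was read by 2 probes of 10 spots each, and the scanner software combined them into the signal used above. The probes were also read singly. For miR-126 the IR minus sham control values of the probes (log2) were -0.83 and -0.29 at 0 h, -0.54 and -0.56 at 24 h, and -1.27 and -0.55 at 48 h, so both were below 0 at these times. At 0 h and 48 h they lay further from 0 than the combined -0.19 and -0.32, which are on another measure. The mean of log2 probe signals moved the median of all tested miRs by -0.15 at 0 h and -0.35 at 48 h. At 7d the 2 probes of miR-126 disagreed, at -1.06 and 0.03. The first was the dimmer, with log2 means of 2.68 in IR and 3.74 in sham control against 5.77 and 5.74. For miR-143 at 24 h the probes gave -0.11 and -0.47, and at 7d 0.19 and -0.58. Here the second was the dimmer, with 7d means of 3.39 in IR and 3.97 in sham control against 6.61 and 6.42.

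MiR-214, miR-221 and miR-222 were detected mainly on the arrays of 1 of the 3 scan days. The third scan day held 16 arrays, 8 of each treatment, on which a median of 190 miRs was detected against 130 on the other 44 arrays. MiR-214 was detected on all 8 sham control and 5 of the 8 IR arrays of that day, and on 2 of the other 44, both IR. MiR-221 was detected on 7 of the 8 sham control arrays of that day and on no other array. MiR-222 was detected on 2 of those 8 sham control arrays and nowhere else. On that day no slide held arrays of both treatments, so slide and treatment cannot be told apart there. The part of the scan day in this pattern was not tested.

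Before scaling, the signals of miR-214 and miR-221, pooled over times, overlapped between treatments on the third scan day and on the other days. On the third scan day miR-214 ran from 18.4 to 30.2 signal units in sham control and from 3.38 to 27.3 in IR. MiR-221 ran from 7.50 to 22.3 in sham control and from 3.65 to 9.96 in IR. MiR-222 did not overlap on that day, at 3.91 to 11.6 in sham control and -4.11 to 2.16 in IR. On the other days miR-214 ran from -2.33 to 39.3 in IR, around a median of 10.4. In sham control it ran from -4.32 to 9.99 around 2.87. Its IR signals of these days lay above all of sham control at 2 h and 48 h. They overlapped at 0 h, 24 h and 7d. The medians of miR-221 on these days were 9.63 in IR and 9.25 in sham control. The highest miR-214 signals of all came from IR arrays of the first scan day, 39.3 at 48 h (replicate 2) and 34.5 at 0 h (replicate 2). The same arrays held the highest miR-199a-3p signals of the 60 arrays, 22.1 and 26.3, neither of them detected. They also held the highest miR-221 signals among IR arrays, 21.4 and 20.2, likewise not detected.

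After scaling, miR-214 and miR-221 were higher on the dim IR arrays of 24 h. At 24 h the scaled miR-214 signal ran from 11.3 to 83.6 around 30.1 in IR and from -3.34 to 13.9 around 3.92 in sham control, with 1 detected array in each group. MiR-221 ran from 20.9 to 34.9 around 28.98 in IR, where it was detected on no array, and from 5.78 to 15.9 around 7.77 in sham control, where it was detected on 1. With the filter lowered to 1 detected array, these differences were 1.81 for miR-214 and 1.61 for miR-221 on the log2 scale and were called. In IR they rest on undetected signals multiplied by 2.12 to 5.73, apart from the 1 detected miR-214 array. At 48 h miR-214 was detected on 3 of 6 IR and 2 of 6 sham control arrays. Its scaled signals there, 20.9 to 73.0 in IR, lay above the -0.89 to 18.9 of sham control. The IR arrays of that time were scaled by 0.80 to 4.21. With the lowered filter the 48 h difference was 1.59 and was called. As few arrays detected either miR, no direction is given, and the part of scaling was not tested. No lower bound for the ratio of sham control to IR could be given for miR-221. For each IR array the larger of its detection limit and its undetected signal was taken. The mean of these lay above the mean sham control signal at each time. MiR-222 was at or under the floor of the scale in both groups at each time.

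**Figure D3:**
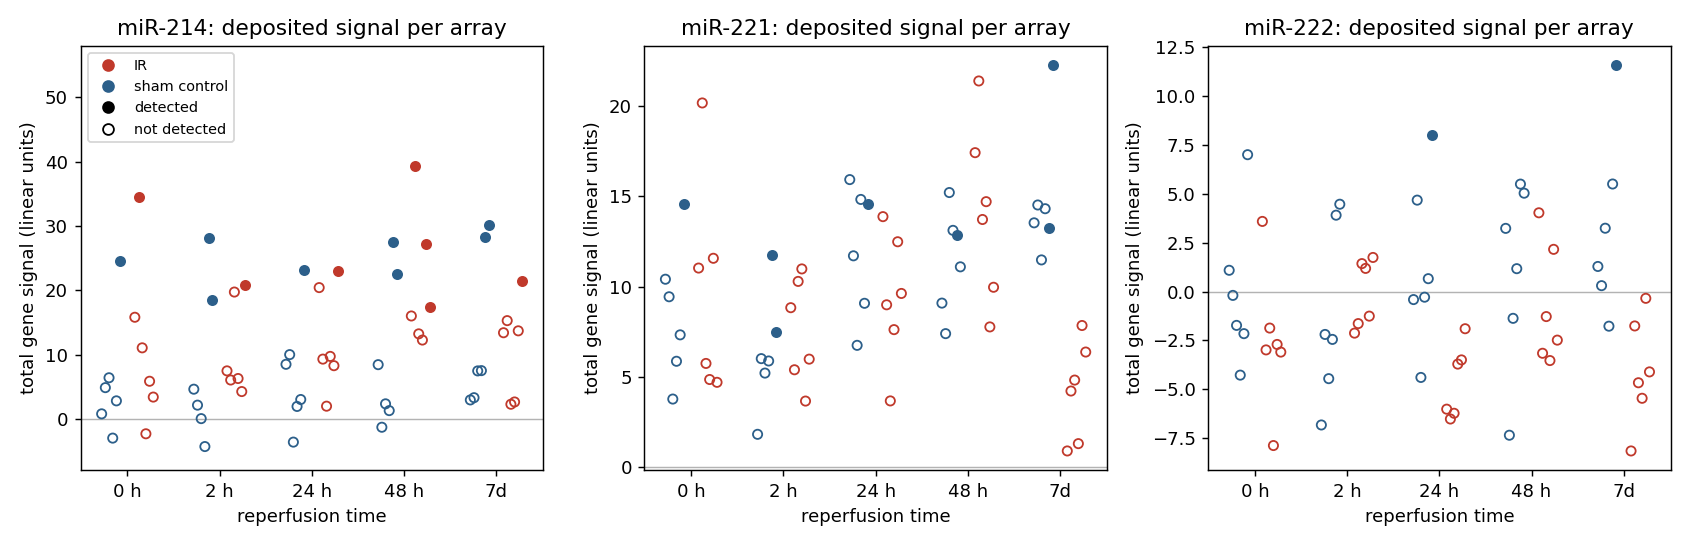
Deposited total signal in linear units (vertical axes), before any scaling, of miR-214, miR-221 and miR-222 in each array at the 5 times; blue is sham control, red is IR, and filled points are arrays that detected the miR. All filled points of miR-221 and miR-222 are sham control arrays.

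MiR-145, the partner of miR-143, gave deposited signals of -16.9 to 7.06 units and was below 0 on 51 of the 60 arrays. Its signal was above 0 on all 8 sham control arrays of the third scan day, from 3.69 to 7.06. On the 8 IR arrays of that day it was below 0, from -6.85 to -2.05. MiR-199a-5p ran from -6.56 to 1.52 and was below 0 on 54 arrays, while miR-199a-3p ran from -2.77 to 26.3 and was below 0 on 5. A miR not detected here is not shown to be absent from the retina. With no pair of cluster partners measured on most arrays, unequal change of miR-143 and miR-145, of miR-221 and miR-222, or of miR-199a and miR-214 could not be tested.

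**Figure D4:**
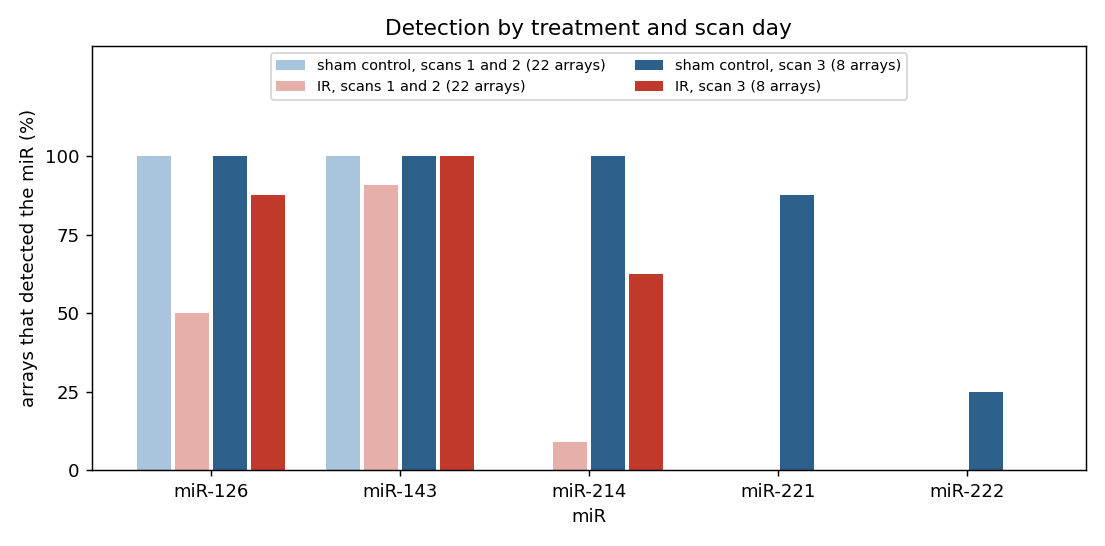
Share of arrays (%, vertical axis) that detected each miR, by treatment and scan day; pale bars are the first 2 scan days (22 arrays per treatment) and dark bars the third (8 per treatment). MiR-214 was detected on all 8 sham control arrays and miR-221 on 7 of 8 on the third scan day.

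Other miRs of vessels were given by 2 further lists. Of 17 miRs of endothelium and vessel growth on the array, 8 were tested and 1 was called, miR-20a, a member of the growth-related miR-17 family. It was higher in IR by 1.21 at 24 h and 1.34 at 48 h (log2), and it was detected on all 12 arrays at each time. The share called over all tested miRs was 18.2% at 24 h and 13.8% at 48 h, so 1 of 8 is near the background. The list's median difference was 0.11 at 24 h. Of 10 miRs of smooth muscle and mesenchyme, 5 were tested and 1 was called, miR-21, a miR that rises in many injured tissues. From 24 h to 7d its IR minus sham control values were 2.21, 2.20 and 1.23, and 1 of 5 is likewise near the shares of 18.2%, 13.8% and 18.2% at these times. That list's median difference was 0.07 at 24 h. Among leukocyte markers 1 of 5 was tested, miR-150, and it was not called at any time, with differences of -0.37 at 24 h, -0.73 at 48 h and -0.96 at 7d. The summed level of the 5 at 24 h was 44.6 to 137 in IR and 12.8 to 39.2 in sham control, but miR-142-3p, miR-142-5p and miR-146a were detected on no IR array, so no direction is read from the sum. Of the 5 neuron markers, miR-138 gave -1.18 at 24 h and -1.64 at 7d (IR minus sham control, log2), and no IR array detected it at either time. No other neuron marker was called at any time, and 1 of 5 is near the share of 18.2% at both times. Of the 3 markers of pigment epithelium and choroid, miR-184 gave -3.34 (SE 1.08) at 7d, and no IR array detected it there. No other of these 3 was called at any time, and the share over all tested miRs at 7d was 18.2%.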

How the data were processed

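The members, the marker lists and the tests were chosen with earlier results of these data known. Per the file headers, the authors scanned the arrays with Agilent Feature Extraction 9.5.3.1 and deposited, for each array, the intensity of every miR (the total gene signal) with a detection flag of no fixed unit. They also deposited log2 values for 219 miRs, made with GeneSpring GX as each array's signal (set to at least 1) over its 75th percentile. Of these rows 210 matched a rat miR of the scanner files, and their 12600 values all lay within 0.001 of that rule up to a constant per array. As that constant was free, the percentile itself was not checked. The other rows were not compared. Probe coordinates in the files are on rn4. Here signals were scaled to the 75th percentile over the 57 miRs detected on every array, floored at 7.36 units and put on the log2 scale. A miR was tested if some group detected it on each of its 6 arrays. All 10 groups were fitted in 1 limma model (limma 3.58.1 in R 4.3.3) with Benjamini-Hochberg adjustment over 159 miRs, and a call needed at least 2-fold and an adjusted p of at most 0.05. Exact permutation tests used scipy 1.17.1. The fit was also tested on simulated data, drawn as independent normal values without a floor, slide effects or differences in brightness. All 8 members were named in full, with the 2 most alike miRs of each member detected on at least 30 of the 60 arrays. The alternatives tried were other scalings, background corrections, floors, filters, blocks and left-out arrays. Signals are intensities without read counts, so the number of arrays limits the precision. No deposited array was left out and no array was identical to another.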

Additional observations from a re-analysis of the deposited data

Results flagged for a closer look

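In 7 of the 39 groups with varying values among the 5 detected members, the highest or lowest array stood far from the other 5 for the group's spread. Chance gives such a gap in about 1 in 20 groups, and neighbouring members share arrays. That rate does not hold where other arrays were set to the floor, as in the miR-214 and miR-221 groups below. All values here are on the log2 scaled scale. For miR-126 they were IR 48 h replicate 6, at 4.39 and not detected, and sham control 0 h replicate 6, at 5.51. For miR-143 it was IR 24 h replicate 3, at 5.40, one of the 2 arrays that did not detect it. For miR-214 they were replicate 6 of sham control 0 h, at 3.62, and replicate 6 of sham control 24 h, at 3.80, the only arrays of those groups that detected it. For miR-221 they were sham control 2 h replicate 5, at 3.52, and sham control 24 h replicate 1, at 3.99 and not detected.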

How the results depend on the processing

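No member was called at 0 h or 2 h or between sham control groups under any alternative that gave a value. Only miRs detected on all arrays and the highest detection limit as a floor gave no value for the members, and no pair of cluster partners could be tested. Counting every miR detected on at least 1 array, or using the deposited table, 2 members were called at 24 h, 2 at 48 h and 1 at 7d, all of them miR-214 or miR-221 and all higher in IR (miR-222, constant at the floor, could not be fitted). Normexp background correction called 2 members at 7d, miR-126 and miR-143. The IR effect differed between 2 h and 24 h for 1 member (miR-126, -0.63) with the 75th percentile over all miRs, for 2 (miR-214 and miR-221) when every miR detected on at least 1 array was counted, and for 1 (miR-126, -0.68) in the deposited table.

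For miR-126, normexp gave log2 differences of 0.83, 0.00083, 0.98, 0.99 and 1.33 at the 5 times in order, and moved the median of all tested miRs by 0.68, 0.03, 1.00, 1.00 and 1.28. At 7d the slide as a block gave 0.12 and array brightness 0.33. For miR-143, normexp gave 0.75 at 0 h, 0.0047 at 2 h, 0.87 at 24 h, 0.92 at 48 h and 1.21 at 7d. At 0 h the 75th percentile over all miRs gave -0.22, quantile normalization -0.19, the mean of log2 probe signals -0.15, the slide block -0.021 and the deposited table -0.21. At 24 h array brightness gave 0.052, and leaving out IR replicate 3 gave 0.062. At 48 h the same order of 5 gave -0.023, -0.044, -0.30, -0.073 and -0.0036, and only the arrays compared -0.11. At 7d that order gave -0.12, -0.12, -0.20, -0.10 and -0.17. The cause of these changes was not tested.

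With each array left out in turn, the counts of called members were 0 to 0, and the miR-126 difference at 24 h ran from -0.63 to -0.31. Without the 2 dimmest arrays, an alternative chosen after seeing the data, 0 members were called at every time. Same-numbered IR and sham control arrays of a time shared the scan day. They deviated together (r over 0.1) in 15 of 30 pairs, with r from -0.45 to 0.60. These values are not set against arrays of different numbers, so they do not decide whether the numbers pair the arrays. With the replicate number as a block 0 members were called at each time, with miR-126 at -0.52 at 24 h.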
